A study of Mus musculus with 12 samples.

Results

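The immediate-early transcription factors examined here were the 10 genes Fos, Fosb, Fosl2, Jun, Junb, Egr1, Egr2, Nr4a1, Nr4a2 and Nr4a3, chosen by name from the 52636 gene identifiers of the count table. All 10 passed the filter on low counts and were among the 14173 genes tested. They were measured by 3′ RNA-sequencing of CD8+ T cells from subcutaneous AT-3ova tumors, a mouse mammary carcinoma line made to express ovalbumin, at day 21 after injection of 500000 cells. The hosts were female C57BL/6 mice of 6 to 16 weeks carrying the A2AR eGFP reporter, a bacterial artificial chromosome transgene that places EGFP under Adora2a regulatory sequences. GFP therefore reports transgene activity and stands in for A2AR, a receptor for adenosine. Cells were sorted as GFP+ or GFP- from non-treated mice and from mice given anti-PD-L1 antibody at days 14 and 18, with 3 libraries in each of the 4 conditions. Each library was pooled from 3 mice, so the spread given below is between pools and not between animals. Non-treated GFP- cells were libraries KT14, KT16 and KT18, non-treated GFP+ cells KT13, KT15 and KT17, anti-PD-L1 GFP- cells KT20, KT22 and KT24, and anti-PD-L1 GFP+ cells KT19, KT21 and KT23; values in 3 libraries follow this order throughout.

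Immediate-early genes are transcribed within minutes of T cell receptor engagement or stress, without new protein synthesis, and their mRNAs are short-lived. FOS and JUN family proteins pair to form AP-1, which binds the regulatory regions of activation and effector genes. EGR proteins are zinc finger factors induced through the MAP kinase pathway, and EGR2 in particular is linked to T cell anergy and restraint. NR4A proteins are orphan nuclear receptors that rise with antigen receptor signalling and are known for their part in the exhausted state of tumor-infiltrating CD8+ T cells. A2AR raises cyclic AMP, which activates protein kinase A and the factor CREB, and several immediate-early promoters carry CREB sites. Enzymatic dissociation of tissue also induces this gene group. The tumors in this study were digested with collagenase and DNase for 30 minutes at 37 °C before the sort. No undigested library was analysed here, so transcripts made in the tumor and transcripts made during digestion cannot be told apart.

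The promoters of 5 of these genes are shown because CREB, described above, lies downstream of the receptor that defines the sort. CREB activity and binding were not measured here. Sequences are from RefSeq on GRCm38.p6, which had an entry for 9 of the 10 genes (all but Egr1). The letters TGACG, the CREB half-site, were searched on both strands in the 250 bases before each transcription start; matches are in capitals, so CGTCA is a match on the other strand. Only bases outside annotated exons are printed. Capitals in Egr2 also mark 1 CArG box, the site of serum response factor, which reads CCATATATGG.
Fos, chr12:85473640-85473889, plus strand: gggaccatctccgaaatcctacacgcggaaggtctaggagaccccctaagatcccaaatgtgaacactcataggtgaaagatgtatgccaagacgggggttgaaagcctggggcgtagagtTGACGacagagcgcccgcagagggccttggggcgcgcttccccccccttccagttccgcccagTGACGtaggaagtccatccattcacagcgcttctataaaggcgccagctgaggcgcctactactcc
Egr2, chr10:67537619-67537868, plus strand: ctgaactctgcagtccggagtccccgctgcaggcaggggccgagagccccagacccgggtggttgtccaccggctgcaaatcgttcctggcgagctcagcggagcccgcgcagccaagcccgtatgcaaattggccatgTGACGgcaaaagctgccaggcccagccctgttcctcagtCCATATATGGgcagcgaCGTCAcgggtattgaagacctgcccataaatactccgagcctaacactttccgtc
Nr4a1, chr15:101266596-101266845, plus strand: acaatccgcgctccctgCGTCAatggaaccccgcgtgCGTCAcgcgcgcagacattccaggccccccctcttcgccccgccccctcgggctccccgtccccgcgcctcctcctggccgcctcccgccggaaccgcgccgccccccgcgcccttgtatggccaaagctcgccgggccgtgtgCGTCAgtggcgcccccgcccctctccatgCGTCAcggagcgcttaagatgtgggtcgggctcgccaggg
Nr4a3, chr4:48045055-48045152, plus strand: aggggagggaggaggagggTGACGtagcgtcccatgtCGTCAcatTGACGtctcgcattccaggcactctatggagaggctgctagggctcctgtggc
Jun, chr4:95052223-95052472, minus strand: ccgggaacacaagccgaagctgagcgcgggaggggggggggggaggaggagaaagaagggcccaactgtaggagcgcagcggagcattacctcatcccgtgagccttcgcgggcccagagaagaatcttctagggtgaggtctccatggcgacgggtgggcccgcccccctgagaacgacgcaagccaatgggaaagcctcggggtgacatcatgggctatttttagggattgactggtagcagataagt

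The half-site was present before the start of 7 of the 9 genes, against 17.8% of the 32851 promoters in the table. Nr4a1, Nr4a2 and Nr4a3 held 4 matches each, Fos and Egr2 held 2 each, and Fosb and Junb held 1 each. For Nr4a3 the match 147 bases before the start lay in an annotated exon and is not printed above. Neither Jun nor Fosl2 held these exact letters in this window, and the whole Fosl2 window lay in annotated exons. For Fos the matches lay 129 and 66 bases before the start, and for Egr2 111 and 55 bases before the start, with the CArG box at 72. Egr2 has 5 starts in the table, and the middle one is shown. The AP-1 letters TGANTCA were found before none of the 9 genes and in 6.75% of all promoters, and a CArG box before 1 of 9 and in 1.47% of all. TGACG forms part of the longer CREB site and overlaps neither of the other motifs in these windows. A match describes letters in a window and is not evidence of binding.

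The libraries held between 11292699 (KT13) and 19023900 (KT16) counts, and the 10 genes took 0.247% (KT21) to 0.435% (KT23) of them. Adora2a checked the sort, with 19.7 to 34.6 counts per 1000000 after TMM normalization (CPM) in GFP- and 60.2 to 111 CPM in GFP+ libraries. All 7 T and CD8 markers were present, while the 3 B cell and 3 neutrophil markers each averaged under 1 CPM. All 9 macrophage markers were present and summed to 166 to 300.4 CPM in non-treated and 117 to 176 CPM in anti-PD-L1 libraries. All 3 NK markers were present and summed to 62.9 to 109 CPM in GFP- and 136 to 204 CPM in GFP+ libraries, led by Fcer1g, which myeloid cells also express. The GFP+ libraries KT13 and KT21 stood apart, with median rank correlations with the other libraries of 0.941 and 0.935 against 0.967 to 0.977 for the other 10. The fit was therefore made over 12 libraries and again over the 10 without them. GFP+ conditions have 2 libraries each in the smaller set. In bulk RNA, a smaller share of expressing cells and less RNA per cell cannot be told apart.

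None of the 10 genes passed the test in any of the 7 comparisons made, over 12 or over 10 libraries, and the same held under DESeq2 and under limma voom. The genes were abundant in every library of every condition. Because 3′ sequencing places reads near the end of each transcript, CPM were compared between genes without division by length. Junb was the most abundant at a mean of 1803 CPM over the 12 libraries, above 99.4% of the genes tested. Nr4a2 was the next at 558 CPM. Nr4a1, Fosb, Fosl2, Fos and Egr1 lay between 205 and 234 CPM, and the ranges of these neighbours overlapped, so that their order is not resolved. Jun at 167 CPM and Nr4a3 at 99.5 CPM followed by mean. The range of Jun, 107 to 233 CPM, overlapped those of Egr1, 128 to 270 CPM, and of Nr4a3, 66.9 to 121 CPM. Egr2 was the least abundant at 22.8 CPM, and its highest library lay below the lowest library of each of the others.

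**Figure D1:**
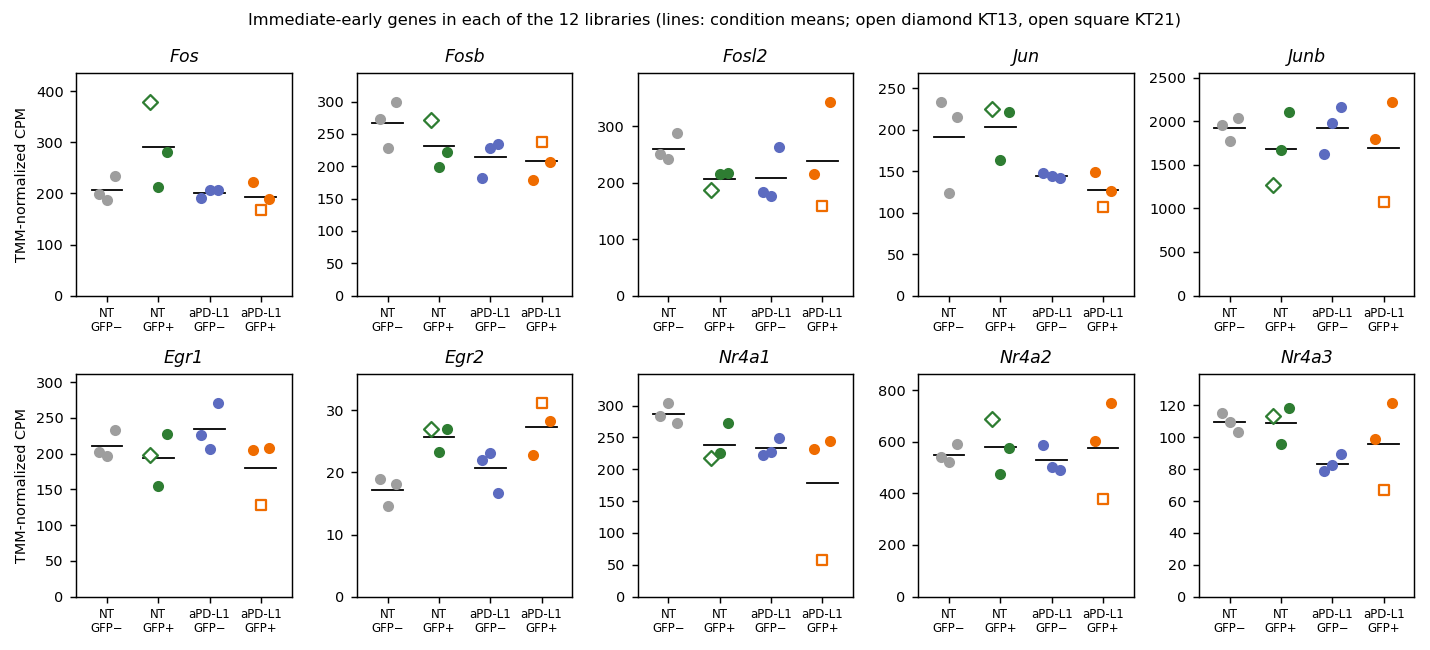
TMM-normalized CPM (vertical axis, from 0) of each gene in each library, by condition on the horizontal axis; horizontal lines are condition means, the open diamond is KT13 and the open square KT21. KT21 is the lowest of the 12 libraries for 8 of the 10 genes, with Nr4a1 at 57.0 CPM there and at 217 CPM or more elsewhere.

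Nr4a2, encoding NURR1, made up the larger part of the NR4A transcripts in every library, from 55.8% to 75.4% of the 3 genes' sum. Its levels were 540.1, 521 and 589 CPM in non-treated GFP- cells and 686, 474 and 576 CPM in non-treated GFP+ cells. After anti-PD-L1 they were 589, 502 and 491 CPM in GFP- cells and 602, 379 and 749 CPM in GFP+ cells. The anti-PD-L1 GFP+ libraries thus held both the lowest and the highest of the 12 values. The log2 fold change of GFP+ against GFP- cells was 0.07 (SE 0.214) without treatment and 0.13 (SE 0.214) under anti-PD-L1, with edgeR adjusted p = 0.980 and 0.993. Over 10 libraries the first of these was -0.07 (SE 0.123, adjusted p = 0.920) and the second 0.36 (SE 0.122, adjusted p = 0.535), where both remaining GFP+ libraries lay above the 3 GFP- libraries.

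Nr4a1, encoding NUR77, is the member most used as a reporter of recent antigen receptor signalling (chr15:101254269-101274795, plus strand, mm10). It stood at 284, 304 and 273 CPM in non-treated GFP- cells and at 217, 226 and 272 CPM in non-treated GFP+ cells. Under anti-PD-L1 the GFP- libraries held 223, 227 and 249 CPM and the GFP+ libraries 232, 57.0 and 245 CPM. Non-treated GFP- libraries were the 3 highest of the 12, and KT21 was far below all others. The mean fell from 287 ± 15.6 to 233 ± 13.8 CPM (SD, n = 3) between non-treated and anti-PD-L1 GFP- cells without overlap, a log2 fold change of -0.30 (SE 0.358) that missed the threshold (edgeR adjusted p = 1). With KT13 and KT21 left out the same difference had an SE of 0.104 and an adjusted p of 0.446. The highest to lowest ratio of Nr4a1 was 5.32 over 12 libraries and 1.36 over 10, the smallest such ratio of the 10 genes in the smaller set.

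Nr4a3, encoding NOR1, was the least abundant NR4A gene at 8.83% to 13.3% of the family sum. Its values were 116, 109.5 and 103 CPM in non-treated GFP- cells, and 113, 95.9 and 119 CPM in GFP+ cells. Anti-PD-L1 GFP- cells held 78.6, 82.8 and 89.2 CPM, and anti-PD-L1 GFP+ cells 99.2, 66.9 and 121 CPM. All anti-PD-L1 GFP- libraries lay below all non-treated GFP- libraries, at 83.6 ± 5.34 against 109 ± 6.12 CPM (SD, n = 3). This difference of -0.39 on the log2 scale (SE 0.191) missed the threshold at an edgeR adjusted p of 1; over 10 libraries it was -0.39 (SE 0.122, adjusted p = 0.344). In GFP+ cells the same treatment gave -0.19 (SE 0.191, adjusted p = 0.966) over 12 libraries and the opposite sign, 0.04 (SE 0.149, adjusted p = 0.981), over 10, and the libraries overlapped. The GFP by treatment interaction was 0.20 (SE 0.270) over 12 libraries and 0.43 (SE 0.193) over 10, with an adjusted p of 0.9999 and 0.9998.

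Egr2 carried the largest difference of the group between GFP+ and GFP- cells over 12 libraries (chr10:67535475-67542188, plus strand, mm10). Non-treated GFP- libraries held 19.005, 14.7 and 18.1 CPM and non-treated GFP+ libraries 27.0, 23.3 and 27.0 CPM, with no overlap. Anti-PD-L1 GFP- libraries held 22.1, 23.2 and 16.8 CPM and anti-PD-L1 GFP+ libraries 22.7, 31.2 and 28.3 CPM, where KT19 fell between the GFP- values. The log2 fold change of GFP+ against GFP- cells was 0.58 (SE 0.196) without treatment and 0.41 (SE 0.196) under anti-PD-L1. Averaged over both treatments it was 0.49 (SE 0.139, 95% interval 0.20 to 0.79), a 1.41-fold difference. None passed the threshold, with edgeR adjusted p = 0.649, 0.993 and 0.261 in turn. Over 10 libraries the averaged value was 0.42 (SE 0.143, adjusted p = 0.227). The value without treatment was then 0.55 (SE 0.202) and that under anti-PD-L1 0.30 (SE 0.203), where Fosl2, Nr4a3 and Nr4a2 had larger values of 0.42, 0.40 and 0.36. Leaving out each of the 12 libraries in turn kept the value averaged over treatments between 0.44 and 0.55. Egr2 was also the member for which KT21 was the highest library. The sum of the NK markers given above was higher in every GFP+ than in every GFP- library. Fcer1g and Klrb1c alone also separated the sorts, whereas Ncr1 overlapped. Ncr1 stood at 3.29 to 6.65 CPM in GFP+ and at 1.21 to 5.84 CPM in GFP- libraries. The part of the NK markers in the Egr2 difference was not tested.

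Egr1, the most abundant EGR gene and an early target of the MAP kinase pathway, took 80.5% to 94.2% of the Egr1 and Egr2 sum. It stood at 202, 197 and 233 CPM in non-treated GFP- cells, 198, 154 and 228 CPM in non-treated GFP+ cells, 226, 206 and 270.4 CPM in anti-PD-L1 GFP- cells, and 205, 128 and 208 CPM in anti-PD-L1 GFP+ cells. The GFP+ and GFP- ranges overlapped in both treatments. Its log2 fold change of GFP+ against GFP- cells, averaged over treatments, was -0.25 (SE 0.144, edgeR adjusted p = 0.684) over 12 libraries and -0.16 (SE 0.105, adjusted p = 0.656) over 10, opposite in sign to that of Egr2. The share of Egr2 in the sum of both genes was 7.58% ± 0.896 in non-treated GFP- cells and 11.9% ± 1.27 in non-treated GFP+ cells (SD, n = 3), without overlap. Under anti-PD-L1 the shares were 8.28% ± 2.20 and 13.8% ± 5.02, and overlapped.

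Fos, the partner of JUN proteins with the strongest transactivation domain, had its highest value in KT13 (chr12:85473890-85477273, plus strand, mm10). Non-treated GFP- cells held 198, 187 and 233 CPM and non-treated GFP+ cells 378, 213 and 281 CPM. After anti-PD-L1 the values were 190.4, 207 and 207 CPM in GFP- cells and 222, 168 and 189 CPM in GFP+ cells. The non-treated difference was smaller without KT13. The log2 fold change of GFP+ against GFP- cells without treatment was 0.49 (SE 0.195, edgeR adjusted p = 0.765) over 12 libraries and 0.26 (SE 0.133, adjusted p = 0.582) over 10. Likewise, anti-PD-L1 against no treatment in GFP+ cells gave -0.59 (SE 0.196, adjusted p = 0.489) over 12 libraries and -0.26 (SE 0.147, adjusted p = 0.664) over 10.

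Fosb encodes a FOS family protein that also exists as a stable truncated form. Its levels were 272, 229 and 299 CPM in non-treated GFP- cells, 272, 199 and 222 CPM in non-treated GFP+ cells, 182, 228 and 234 CPM in anti-PD-L1 GFP- cells, and 179, 238 and 206 CPM in anti-PD-L1 GFP+ cells. The condition means ran from 208 ± 29.4 to 267 ± 35.6 CPM (SD, n = 3), and the 4 ranges overlapped each other. Anti-PD-L1 against no treatment, averaged over GFP groups, gave a log2 fold change of -0.23 (SE 0.124, edgeR adjusted p = 0.739) over 12 libraries and -0.22 (SE 0.0957, adjusted p = 0.380) over 10. Fosb was the only member whose lowest library was KT19.

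Fosl2, encoding FRA2, responds more slowly than Fos. It stood at 251, 241 and 288 CPM in non-treated GFP- cells and at 187, 215 and 216 CPM in non-treated GFP+ cells, without overlap. Anti-PD-L1 GFP- cells held 184, 176 and 263 CPM and anti-PD-L1 GFP+ cells 215, 159 and 342 CPM, so the order of GFP+ and GFP- means was turned. The log2 fold change of GFP+ against GFP- cells was -0.33 (SE 0.240, edgeR adjusted p = 0.893) without treatment and 0.20 (SE 0.240, adjusted p = 0.993) under anti-PD-L1. Over 10 libraries these were -0.27 (SE 0.170, adjusted p = 0.671) and 0.42 (SE 0.168, adjusted p = 0.772). The difference between these, tested as the interaction, was 0.54 (SE 0.339, adjusted p = 0.9999) over 12 libraries and 0.69 (SE 0.240, adjusted p = 0.9998) over 10. Without KT23, the library with the highest Fosl2, the interaction was 0.20.

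Junb gave 84.9% to 94.6% of the Jun and Junb sum. In non-treated cells it was at 1951, 1768 and 2036 CPM where GFP was absent and at 1267, 1671 and 2099 CPM where GFP was present. The anti-PD-L1 values were 1619, 1983 and 2158 CPM in GFP- and 1798, 1074 and 2217 CPM in GFP+ cells. The lowest pair of values came from KT13 and KT21. No comparison of Junb exceeded 0.20 in size on the log2 scale over 12 or 10 libraries. The anti-PD-L1 difference averaged over GFP groups was 0.01 (SE 0.167, 95% interval -0.35 to 0.36) over 12 libraries and 0.05 (SE 0.0879) over 10. The last 351 bases of the Junb locus are shared with Prdx2 on the other strand. Prdx2 itself stood at 64.0 to 89.9 CPM, and whether reads were counted by strand is not given in the sources used here.

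Jun showed the largest difference of the group with treatment (chr4:95049034-95052222, minus strand, mm10). Non-treated GFP- libraries held 233, 124 and 215 CPM and non-treated GFP+ libraries 225, 163 and 221 CPM. After anti-PD-L1 they held 148, 144 and 142 CPM in GFP- cells and 149.6, 107 and 127 CPM in GFP+ cells. In GFP+ cells all anti-PD-L1 libraries lay below all non-treated libraries. In GFP- cells the non-treated library KT16 lay below the whole anti-PD-L1 group. Averaged over GFP groups, the log2 fold change of anti-PD-L1 against no treatment was -0.53 (SE 0.156, 95% interval -0.87 to -0.20), to 0.691 of the non-treated level. It missed the threshold, with an edgeR adjusted p of 0.271 over 12 libraries and 0.116 over 10, where the value was -0.44 (SE 0.130). Across the alternatives tried, single libraries left out included, the adjusted p ran from 0.0235 to 0.601, and only the setting without a filter beyond 1 count gave a value under 0.05. In GFP+ cells alone the value was -0.67 (SE 0.221, adjusted p = 0.493), and in GFP- cells alone -0.40 (SE 0.221, adjusted p = 1). Over 10 libraries these were -0.48 (SE 0.202, adjusted p = 0.497) and -0.40 (SE 0.165, adjusted p = 0.604).

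Heat shock genes, another stress-induced group, were followed beside Jun. Hspa1a, encoding an inducible HSP70, stood at 119 and 129.7 CPM in KT15 and KT16, the non-treated libraries with the lowest Jun, and at 363 to 400.4 CPM in the other 4 non-treated libraries. It was between 63.8 and 171 CPM in the 6 libraries from treated mice. Hspa1b, Hspa8, Hsph1, Hspd1, Hsp90aa1, Hsp90ab1, Dnajb1, Dnajb4 and Hspa5 were likewise lower in KT15 and KT16 than in the other non-treated libraries. For Hspa1b the values were 175 and 159 CPM there, against 352 to 438 CPM. Hspe1, Dnaja1, Bag3 and Hspb1 had other orders, and Hspb1 was highest of the 12 in KT15 at 14.6 CPM. All 14 heat shock genes examined were tested, and 0 passed in any comparison over 12 libraries. In the comparison of anti-PD-L1 with no treatment averaged over GFP groups, 14 of 14 had values below 0, against 51.2% of all genes. The median of the 14 was -0.27, against -0.01 for all genes. An unadjusted p under 0.05 was found for 7 of the 14 and for 7.67% of all genes. Over 10 libraries 13 of 14 had values below 0, against 50.2% of all genes, and the median of the 14 was -0.22. An unadjusted p under 0.05 was then found for 6, against 11.2% of all genes. After adjustment 3 of the 14 fell there, where 1.36% of all genes were called. They were Hspb1 by 1.11, Hspa1b by 1.20 and Hspa1a by 1.30 on the log2 scale (edgeR adjusted p = 0.0107, 0.0194 and 0.0155). Hspa1a and Hspa1b are near-identical, so reads can be divided between them and their separate values are uncertain. Summed macrophage markers were also lower in all anti-PD-L1 than in all non-treated libraries of the same GFP group. Across GFP groups the sums overlapped, with KT19 at 176 CPM above KT14 at 166 CPM. Single markers, among them Ccr2 and Cd68, overlapped between treatments in each GFP group. The part of heat shock genes, or of the macrophage markers, in the Jun values was not tested.

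**Figure D2:**
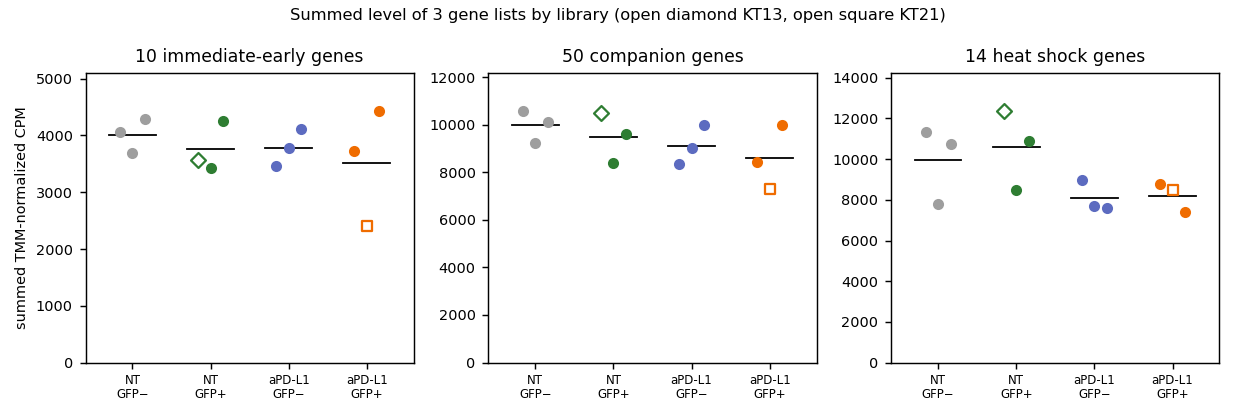
Summed TMM-normalized CPM (vertical axis, from 0) of the 10 immediate-early genes, 50 companion genes and 14 heat shock genes in each library, by condition; lines are condition means, the open diamond is KT13 and the open square KT21. The sum of the 10 genes runs from 2409 CPM in KT21 to 4432 CPM in KT23, both anti-PD-L1 GFP+ libraries. Heat shock sums are at most 8988 CPM in the anti-PD-L1 libraries. The non-treated libraries KT15 at 8465 CPM and KT16 at 7797 CPM also lie below that value.

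The comparison of GFP+ with GFP- cells without treatment asks whether A2AR reporter activity in the untreated tumor went with immediate-early expression. By the adjusted p it called 0.00706% of all genes (1 gene, Adora2a) over 12 libraries and 0.339% over 10, and none of the members. Their median log2 fold change was -0.06 against 0.00 for all genes tested. Libraries did not overlap for 3 of the 10 members, with Egr2 higher and Fosl2 and Nr4a1 lower in GFP+ cells, where 12.8% of all genes did not overlap. Over 10 libraries 4 did not overlap, Fosb being the addition, against 25.2% of all genes. Egr2 and Fos had an unadjusted p under 0.05 over 12 libraries, as had 6.05% of all genes, and Egr2 and Fosb over 10 libraries, as had 9.24%.

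Under anti-PD-L1 the same contrast of GFP+ and GFP- cells called 0.0282% of all genes over 12 libraries and 0.17% over 10, again without a member. Libraries overlapped for all 10 members, where 10.6% of all genes did not overlap. Over 10 libraries Nr4a2 and Nr4a3 were higher in both GFP+ libraries than in all GFP- libraries, against 22% of all genes without overlap. The log2 fold change of Nr4a3 there was 0.40 (SE 0.136, edgeR adjusted p = 0.532). The members with an unadjusted p under 0.05 numbered 0 over 12 libraries and 3 over 10 (Fosl2, Nr4a2 and Nr4a3), with 4.08% and 5.34% of all genes.

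Anti-PD-L1 against no treatment asks whether checkpoint blockade, given at days 14 and 18, went with a change in these genes. In GFP+ cells 0.0141% of all genes were called over 12 libraries and 0.563% over 10, and 0 members in both. Jun was the 1 member without overlap over 12 libraries (10.3% of all genes), and Jun lower and Nr4a2 higher were the 2 over 10 libraries (39.1% of all genes). Fos and Jun had an unadjusted p under 0.05 over 12 libraries and Jun and Nr4a2 over 10, against 6.74% and 8.54% of all genes.

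In GFP- cells, where no library stood apart, the same treatment contrast called 0% of all genes over 12 libraries and 0.373% over 10, where the spread was estimated without KT13 and KT21. Nr4a1 and Nr4a3 did not overlap and were lower with anti-PD-L1, in a background of 12.3% of all genes over 12 libraries and 12.1% over 10. None of the members had an unadjusted p under 0.05 over 12 libraries. Over 10 libraries Fosb, Fosl2, Jun, Nr4a1 and Nr4a3 had one, 5 of 10 against 7.22% of all genes, each with a negative log2 fold change between -0.30 and -0.40, and none passed after adjustment. The GFP- libraries are the same in both sets, and the SE of the members ran from 0.176 to 0.358 over 12 libraries and from 0.104 to 0.184 over 10.

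**Figure D3:**
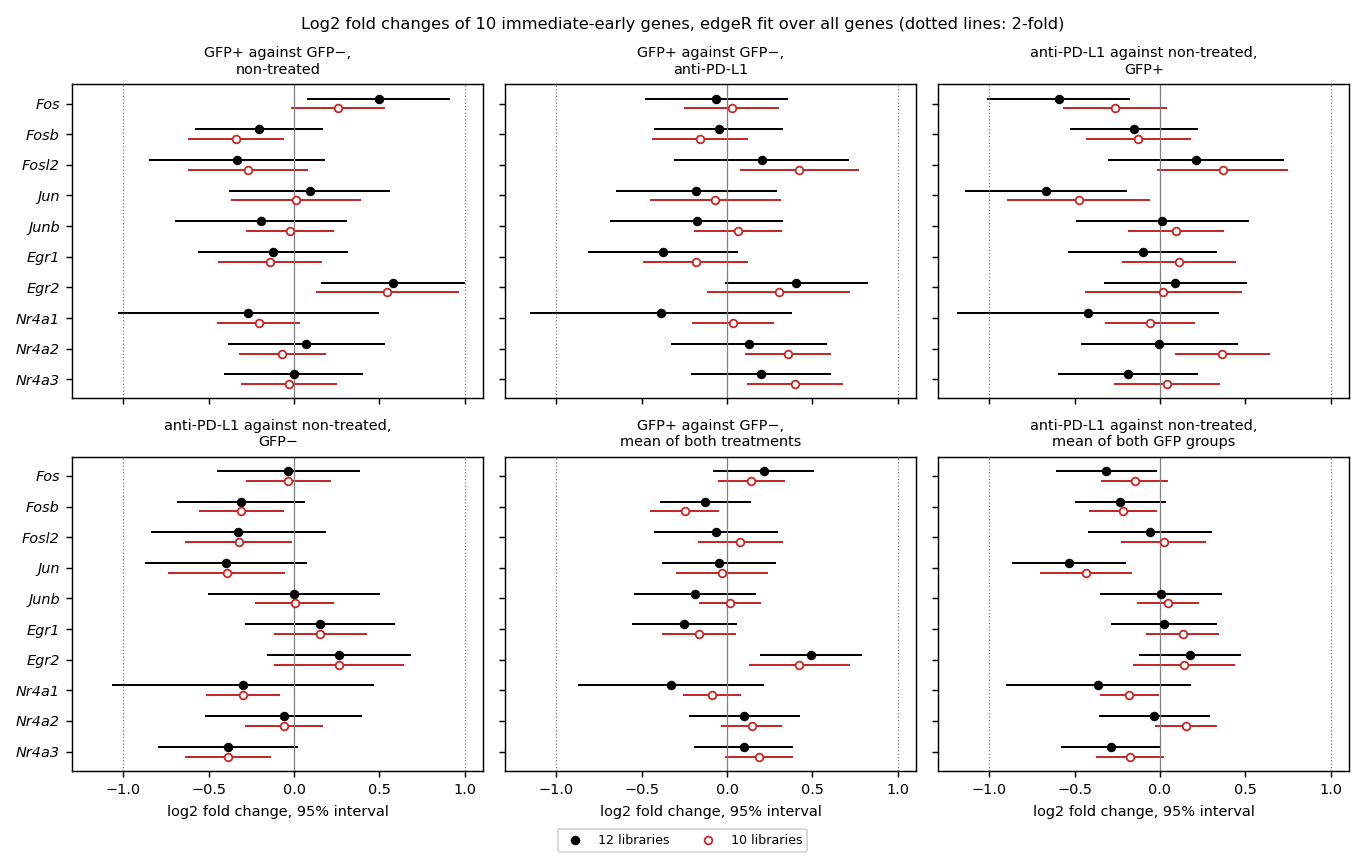
Log2 fold change (horizontal axis) of each gene with its 95% interval in 6 comparisons, over 12 libraries (filled) and over 10 (open); dotted lines mark 2-fold differences. Intervals reach past 2-fold mainly for Nr4a1 over 12 libraries, and over 10 libraries all intervals in these 6 comparisons lie within 2-fold.

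Averaged over treatments, GFP+ against GFP- cells called 0.31% of all genes over 12 libraries and 1.08% over 10. Averaged over GFP groups, anti-PD-L1 against no treatment called 0.395% and 1.36%. No member was among them. The interaction of GFP and treatment called 0% of all genes over 12 libraries and 0% over 10. The members with an unadjusted p under 0.05 over 12 libraries were Egr2 for GFP and Fos and Jun for treatment, with 8.18% and 7.67% of all genes, and none for the interaction, with 2.08%. Over 10 libraries they were Egr2 and Fosb for GFP, Fosb, Jun and Nr4a1 for treatment, and Fosl2, Nr4a2 and Nr4a3 for the interaction, with 10.3%, 11.2% and 4.29% of all genes. The data bound these differences, since all 10 intervals in both averaged comparisons lay within 2-fold in either direction, over 12 and over 10 libraries. In the single comparisons over 12 libraries 7 to 9 of 10 intervals did so, and over 10 libraries all 10. A missed threshold does not show that the groups were alike within these bounds.

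Spread between replicates was measured for each gene. The SD within conditions, on the log2 scale, had a median of 0.28 over the members and 0.37 over all genes tested. Among the 5285 genes at least as abundant as Egr2 the median was 0.23. Without KT13 and KT21 the medians were 0.18 for the members and 0.16 for those abundant genes. The largest SD was that of Nr4a1 at 0.60, above 93.5% of the genes within 0.5 log2 units of its level, and without KT13 and KT21 it was 0.10, above 32.5% of such genes. Jun, Fosl2 and Junb had the widest spread for their level over 10 libraries, at the 98.2, 97.1 and 95.6 percentiles. Egr2, the scarcest, had an SD of 0.20 and 0.21 over the 12 and 10 libraries, at the 18.9 and 44.0 percentiles for its level.

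**Figure D4:**
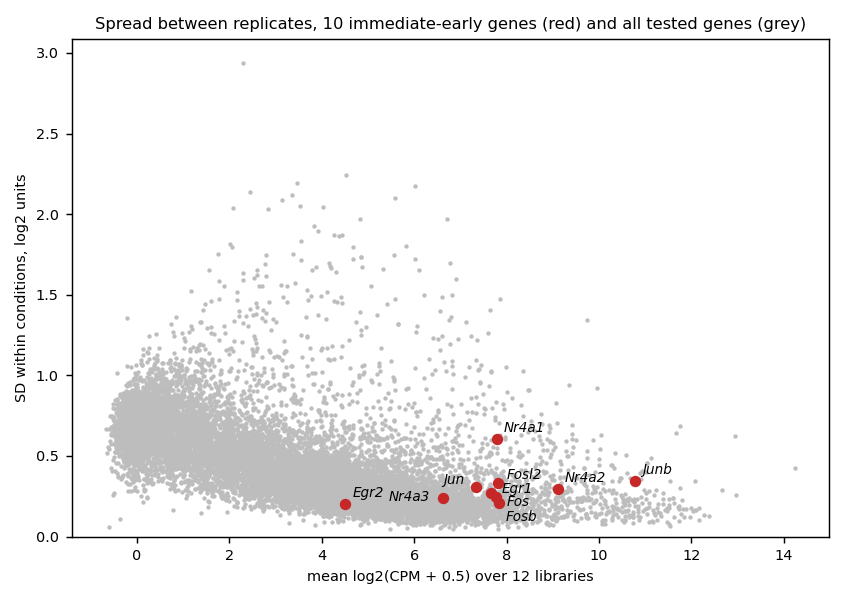
SD between replicates within conditions (vertical axis, log2 units) against mean log2(CPM + 0.5) over 12 libraries (horizontal axis) for all tested genes in grey and the 10 immediate-early genes in red. Nr4a1 lies at 0.60, and the other 9 lie between 0.20 and 0.35.

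KT21 was the library farthest from its condition mates in this gene group. It was the lowest of 12 libraries for Fos, Fosl2, Jun, Junb, Egr1, Nr4a1, Nr4a2 and Nr4a3, and the highest for Egr2. Against the mean of its condition mates, Nr4a1 was lower by 2.05 log2 units (value -2.05), Junb lower (value -0.89) and Nr4a2 lower (value -0.82). The median size of such differences in KT21 was 0.70 over the members and 0.48 over all genes. In KT13, the other library that stood apart, the median size was 0.23 over the members and 0.45 over all genes. Among the genes at least as abundant as Egr2 the median size was 0.33 in KT13 and 0.40 in KT21. By both measures the members stood apart less than other genes in KT13 and more in KT21. KT23, a library of the same condition as KT21, was the highest of 12 for Fosl2, Junb, Nr4a2 and Nr4a3.

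**Figure D5:**
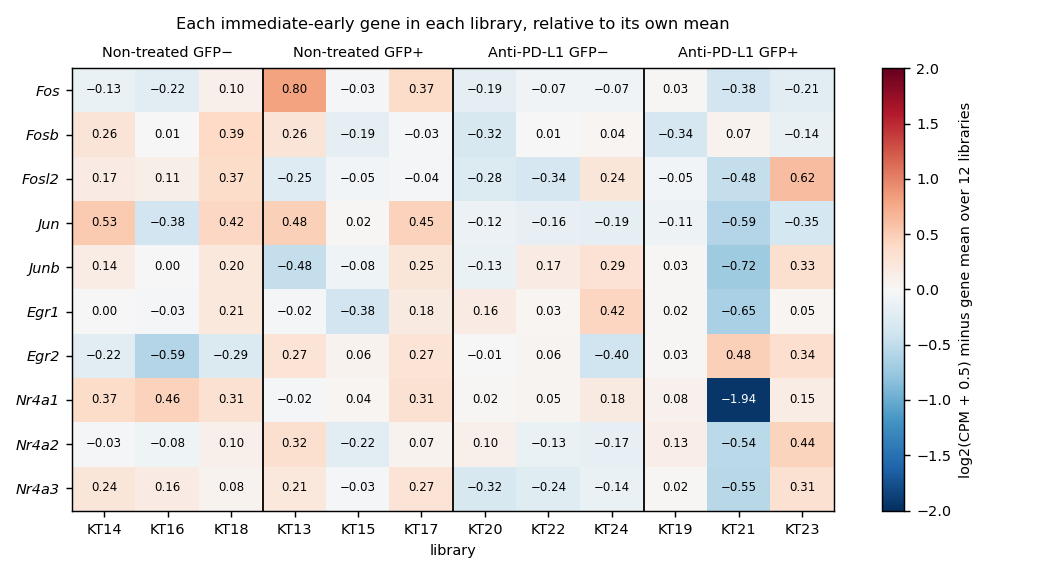
Difference of each gene from its own mean over 12 libraries (log2(CPM + 0.5) units, colour and printed value), with libraries on the horizontal axis grouped by condition. The KT21 column is negative for 8 of 10 genes, down to -1.94 for Nr4a1, whereas Fos in KT13 is at 0.80.

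Members did not form a single block across libraries. Pearson correlations of log2(CPM + 0.5) between pairs of members ran from -0.58 (Egr2 and Nr4a1) to 0.77 (Junb and Nr4a1) over 12 libraries, which share KT21 as an extreme point. Fos and Jun correlated at 0.72 and the 3 NR4A genes with each other at 0.61 to 0.72, as a description over libraries of 4 conditions. Over 10 libraries Fos and Jun correlated at 0.63, Nr4a1 and Nr4a3 at 0.67, Nr4a2 and Nr4a3 at 0.45 and Nr4a1 and Nr4a2 at -0.0046. The genes outside the group whose pattern was most like the mean of the members were Ppp1r15a (r = 0.954), Pim3 (0.934), Gm9396 (0.929), Sertad1 (0.924) and Taf1d (0.915) over 12 libraries. Over 10 libraries they were AU022252 (0.946), Zc3h12a (0.913), Pim3 (0.901), Snhg1 (0.900) and Gm15536 (0.898). Pim3 was in both lists.

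Other activation-induced genes were followed as a list of 50 companions, which holds further AP-1 and MAF proteins, EGR3 and EGR4 with their NAB corepressors, dual-specificity phosphatases, ZFP36 family mRNA-decay factors, NF-kB feedback inhibitors and Kruppel-like factors. All 50 were tested. Over 12 libraries 0 passed in 6 of the 7 comparisons. In the comparison of anti-PD-L1 with no treatment averaged over GFP groups 1 fell. That comparison called 0.395% of all genes over 12 libraries and 1.36% over 10. Of the 50, 33 had values below 0 there over 12 libraries, against 51.2% of all genes, with a median of -0.09. An unadjusted p under 0.05 was found for 9, as for 7.67% of all genes. The companion that fell was Klf2, a factor that maintains T cell quiescence and trafficking and is lost on activation. Its levels were 459, 278 and 418 CPM in non-treated GFP- cells, 599, 313 and 516 CPM in non-treated GFP+ cells, 255, 213 and 225 CPM in anti-PD-L1 GFP- cells, and 251, 183 and 196 CPM in anti-PD-L1 GFP+ cells. All 6 anti-PD-L1 libraries lay below all 6 non-treated libraries. The share of all genes separated in this way was not counted, so nothing is drawn from this order. Klf2 fell by 0.96 on the log2 scale (SE 0.170, edgeR adjusted p = 0.0239) over 12 libraries and by 0.81 (SE 0.132, adjusted p = 0.000829) over 10. The call over 12 libraries was lost when any one of KT14, KT17, KT18, KT20, KT22, KT23 or KT24 was left out. As with Jun, KT15 and KT16 were the lowest of their non-treated conditions.

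In the GFP comparison averaged over treatments, 0 of 50 companions passed over 12 libraries and 2 rose over 10. Of all genes, 0.31% were called over 12 libraries and 1.08% over 10. Over 12 libraries 7 companions had an unadjusted p under 0.05, beside 8.18% of all genes. Spry2, an inhibitor of receptor signalling to MAP kinases, was higher in GFP+ cells by 0.48 on the log2 scale over 10 libraries (SE 0.107, edgeR adjusted p = 0.0206), and by 0.51 over 12 (SE 0.116, adjusted p = 0.108). Myc, the growth and metabolism regulator induced on T cell activation, was higher by 0.87 over 10 libraries (SE 0.190, adjusted p = 0.0189) and by 0.67 over 12 (SE 0.262, adjusted p = 0.515). Myc was at 5.76 CPM in KT21 and at 14.1 to 25.5 CPM in the other GFP+ libraries, against 6.49 to 16.2 CPM in GFP- libraries. The companion median in this comparison was -0.04 over 12 libraries and -0.05 over 10, with 22 of 50 above 0 in both.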

How the data were processed

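RNA from sorted cells was made into QuantSeq 3′ libraries and sequenced as 75 bp single-end reads. The authors trimmed reads (cutadapt 1.7 in the submitters' processing notes, another version in the methods), aligned them to mm10 with HISAT2 and counted them with featureCounts (Subread 1.6.4 in the notes). The deposited values are raw read counts per Ensembl gene, 1 column per library. Symbols were matched for 52403 of 52636 identifiers.

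Counts were normalized by TMM and tested with edgeR 4.0.16 (quasi-likelihood F test) in 1 fit of 4 conditions over 12 libraries after filterByExpr, and again over the 10 libraries without KT13 and KT21. P-values were adjusted by Benjamini-Hochberg over all genes tested, with a threshold of 0.05. The 7 contrasts were the 4 single comparisons, the interaction and the 2 averaged comparisons. CPM in the text come from the 12-library normalization, and a log2 scale of CPM used a pseudocount of 0.5. DESeq2 1.42.0, limma 3.58.1 (voom with quality weights), upper-quartile factors, a filter of 10 counts in every library, no filter beyond 1 count, fits of only the 2 groups compared and the omission of each library were alternatives, and a block of neighbouring library codes was added after seeing the data. The scripts were tested on simulated counts. R was version 4.3.3.

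The 10 genes, the companion, heat shock and marker lists and the omission of KT13 and KT21 were chosen with earlier results of these data known. Beyond the 10 genes and Adora2a, genes were named if a companion or heat shock gene was called over 12 or 10 libraries, or if among the 5 genes most correlated with the mean of the 10. Libraries of 1 condition differed by more than sampling noise, so none was a copy. The labels give no batch. Of the other marker lists, summed levels over the 12 libraries were 6.89 to 24.9 CPM for CD4 and Treg, 12.4 to 52.2 for dendritic, 7.84 to 32.0 for epithelial, 0.214 to 64.3 for fibroblast, 9.34 to 24.3 for endothelial and 123 to 577 for erythroid genes. The dendritic sum was nearly all Ccr7, and the other 3 dendritic markers each averaged under 1 CPM. The CD4 and Treg sum was nearly all Foxp3, and Cd4 averaged under 1 CPM.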

Additional observations from a re-analysis of the deposited data

How the results depend on the processing

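Of the 10 immediate-early genes, 0 passed the threshold under 6 of the 7 alternatives and with any single library left out, in all comparisons each of these covered. The exception was 1 call, Jun in the treatment difference averaged over GFP groups, with no filter beyond 1 count (adjusted p = 0.0235). No alternative shifted the median of all genes by over 0.1 on the log2 scale. Log2 fold changes of the 10 genes changed sign in 34 cases under the 7 alternatives and in 64 cases with 1 library left out, and the cause was not tested. Without KT13 and KT21 log2 values changed sign for Nr4a2 (-0.069) in GFP+ against GFP- cells without treatment, Fos (0.028), Junb (0.064) and Nr4a1 (0.034) in GFP+ against GFP- cells under anti-PD-L1, Egr1 (0.11), Nr4a2 (0.37) and Nr4a3 (0.041) in anti-PD-L1 against no treatment in GFP+ cells, Nr4a1 (0.24) in the interaction, Fosl2 (0.078) and Junb (0.019) in the GFP difference averaged over treatments and Fosl2 (0.022) and Nr4a2 (0.15) in the treatment difference averaged over GFP groups. Under limma voom with quality weights log2 values changed sign for Nr4a2 (-0.0046) and Nr4a3 (0.025) in GFP+ against GFP- cells without treatment, Junb (0.020) in GFP+ against GFP- cells under anti-PD-L1, Egr1 (0.019) and Nr4a2 (0.24) in anti-PD-L1 against no treatment in GFP+ cells, Junb (-0.0065) in anti-PD-L1 against no treatment in GFP- cells, Nr4a1 (0.10) in the interaction, Fosl2 (0.061) and Jun (0.025) in the GFP difference averaged over treatments and Nr4a2 (0.083) in the treatment difference averaged over GFP groups. With upper-quartile normalization log2 values changed sign for Nr4a3 (0.028) in GFP+ against GFP- cells without treatment, Junb (-0.0091) in anti-PD-L1 against no treatment in GFP+ cells, Junb (-0.018) in anti-PD-L1 against no treatment in GFP- cells and Junb (-0.013) in the treatment difference averaged over GFP groups. With 10 counts in every library required log2 values changed sign for Nr4a3 (0.017) in GFP+ against GFP- cells without treatment, Junb (-0.0072) in anti-PD-L1 against no treatment in GFP- cells and Junb (-0.0024) in the treatment difference averaged over GFP groups. With no filter beyond 1 count log2 values changed sign for Nr4a2 (0.0061) in anti-PD-L1 against no treatment in GFP+ cells and Junb (-0.0015) in anti-PD-L1 against no treatment in GFP- cells. With only the 2 groups compared log2 values changed sign for Nr4a3 (0.0033) in GFP+ against GFP- cells without treatment and Junb (-0.0042) in anti-PD-L1 against no treatment in GFP- cells. Under DESeq2 log2 values changed sign for Nr4a3 (0.0098) in GFP+ against GFP- cells without treatment. With each library left out in turn, the log2 fold changes that changed sign are given by their lowest and highest value. For GFP+ against GFP- cells without treatment, the ranges were Jun -0.15 to 0.26, Egr1 -0.26 to 0.017, Nr4a2 -0.069 to 0.20 and Nr4a3 -0.068 to 0.084. For GFP+ against GFP- cells under anti-PD-L1, the ranges were Fos -0.18 to 0.027, Fosb -0.16 to 0.047, Fosl2 -0.13 to 0.42, Junb -0.40 to 0.064, Nr4a1 -0.67 to 0.034 and Nr4a2 -0.083 to 0.36. For anti-PD-L1 against no treatment in GFP+ cells, the ranges were Fosl2 -0.13 to 0.44, Junb -0.21 to 0.26, Egr1 -0.24 to 0.094, Egr2 -0.012 to 0.21, Nr4a1 -0.71 to 0.0038, Nr4a2 -0.23 to 0.23 and Nr4a3 -0.38 to 0.016. For anti-PD-L1 against no treatment in GFP- cells, the ranges were Fos -0.080 to 0.065 and Junb -0.086 to 0.11. For the interaction, the ranges were Junb -0.21 to 0.26, Nr4a1 -0.41 to 0.30 and Nr4a2 -0.17 to 0.29. For the GFP difference averaged over treatments, the ranges were Fosl2 -0.23 to 0.047, Jun -0.16 to 0.039 and Nr4a2 -0.00061 to 0.21. For the treatment difference averaged over GFP groups, the ranges were Fosl2 -0.23 to 0.056, Junb -0.11 to 0.13, Egr1 -0.043 to 0.12 and Nr4a2 -0.14 to 0.084.

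Companion genes called in the treatment difference in GFP+ cells numbered 0 over 12 libraries, 1 under DESeq2, limma voom and without KT13 and KT21 (Klf2 each time), and 2 with no filter beyond 1 count (Klf2 and Klf4). In GFP- cells 1 was called with only the 2 groups compared (Klf2). In the GFP difference averaged over treatments, 2 were called under DESeq2 and limma voom (Spry2 and Maff), 2 with no filter beyond 1 count (Atf3 and Maff) and 2 without KT13 and KT21 (Spry2 and Myc). In the treatment difference averaged over GFP groups, 3 were called with no filter beyond 1 count (Atf3, Klf2 and Klf4), and single libraries left out gave 0 to 2. Klf4, Maff, Atf3 and Batf were named here after their values were seen, Batf having joined Klf2 without KT19. In the treatment difference averaged over GFP groups, 56 genes were called over 12 libraries, 201 without KT13 and KT21, 181 under DESeq2, 132 under limma voom and 223 with no filter beyond 1 count. For the GFP difference averaged over treatments these numbers were 44, 159, 158, 126 and 204. For the treatment difference in GFP+ cells they were 2, 83, 93, 52 and 123. With only the 2 groups compared, 51 genes were called for treatment in GFP- cells.

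The labels pair no libraries across conditions and the codes share no replicate number. GFP+ and GFP- libraries with neighbouring codes (KT13 and KT14, and so on) were tried as a replicate block of 6 couples, chosen after seeing the data. Deviations from condition means correlated between 0.028 and 0.13 within couples, over 0.1 in 1 of 6, and 10 of 12 libraries correlated best with their own code neighbour among the libraries of the other sort and same treatment. This is a hint from the data and not a stated pairing. With the block 0 of 10 immediate-early genes and 0 of 50 companions were called in the 4 comparisons that it can fit, and in the GFP difference averaged over treatments 37 of all genes were called, against 44 without it. Egr2 was higher in the GFP+ library of 6 of 6 couples. That count was made for Egr2 alone, without the share of all genes beside it, so nothing is drawn from it. With the block the averaged log2 fold change of Egr2 was 0.50 (SE 0.136, edgeR adjusted p = 0.310), and Junb changed sign in the interaction (-0.0091). Comparisons of treatment lie between couples and could not be fitted with the block. The number of mice and libraries and the depth were not varied, so their part in the missing calls was not tested.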
